A study of Saccharomyces cerevisiae with 3 samples.

Results

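The 10 genes described here encode chaperones and oxidoreductases of the yeast endoplasmic reticulum (ER), together with the transcription factor of the unfolded protein response. They are KAR2, LHS1, SCJ1, JEM1, PDI1, EUG1, MPD1, ERO1, CNE1 and HAC1, chosen by their gene names in the array files. Each of the 10 had 1 row of probes, out of 6337 rows that stand for 6282 genes. Messenger RNA of Saccharomyces cerevisiae BY4742, a haploid laboratory strain of mating type alpha, was measured on 3 NimbleGen arrays of 1 colour. The high-pressure array carried RNA of cells kept at 25 MPa and 24 °C during 5 h, and the low-temperature array RNA of cells kept at 0.1 MPa and 15 °C during 5 h. The control array carried RNA of cells harvested from growth at 0.1 MPa and 24 °C, and no hold is stated for it, so the treated cultures may also differ from the control by the time of a hold.

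Per the series' design text, RNA of 3 cultures was mixed in equal amounts for each condition. Each condition therefore has 1 array, no difference could be set against a replicate error, and no p-value is given for any comparison. The authors deposited log2 levels from RMA (robust multiarray average), which condenses the 15 perfect-match probes of a row to 1 level. A row is called above mismatch on an array where its perfect-match probes exceeded their mismatch partners on average, by a one-sided t over the 15 pairs at a level of 5%. Between 54.2% and 62.4% of rows were above mismatch on the 3 arrays, and the median log2 level was 6.77 under high pressure, 6.98 at low temperature and 6.43 in the control. Free-text descriptions of the samples name another strain and growth temperature than their titles. LYS2 and URA3, both deleted in BY4742, were above mismatch on none of the arrays, with log2 levels between 3.75 and 5.17. LEU2, also deleted there, was not above mismatch either, at 6.92 under pressure, 7.58 in the cold and 6.01 in the control. URA3 was at 3.96, 4.00 and 5.17 in the same order. Levels not above mismatch thus differed between arrays even for genes that the strain lacks. MF(ALPHA)1, which encodes the pheromone of alpha cells, lay between 12.89 and 13.43.

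Proteins bound for the cell surface, the wall or the vacuole fold in the lumen of the ER. The Hsp70 chaperone Kar2 binds them there with the help of J-domain proteins and a nucleotide exchange factor, thiol oxidoreductases form and rearrange their disulfide bonds, and a lectin chaperone binds their glycans. When unfolded proteins collect, the membrane sensor Ire1 starts an unconventional splicing of HAC1 mRNA that Trl1 completes, and the Hac1 protein made from it switches on chaperone and oxidoreductase genes, KAR2 and PDI1 among the best known. KAR2 is also a target of the heat shock factor.

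KAR2, the Hsp70 of the ER lumen, encoded on chromosome X, had a log2 level of 11.58 under high pressure and 11.09 at low temperature, against 10.88 in the control. It was above mismatch on all 3 arrays and was brightest under pressure. Its ratio was 0.71 on the log2 scale under pressure (1.63-fold higher than the control) and 0.21 in the cold (1.16-fold). The mean perfect-match intensity of KAR2, a linear signal before RMA, was 3739 under pressure and 3629 in the cold, against 1891 in the control. On that scale both treated arrays stood about equally far above the control, by 0.98 and 0.94 on the log2 scale, but the median intensity over all rows differed too, at 327 under pressure, 400 in the cold and 278 in the control, so for KAR2 the cold value turns on which of the deposited values is read.

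LHS1, an Hsp70-related protein that exchanges the nucleotide of Kar2, lay at 6.87 under high pressure and 7.10 at low temperature, against 6.81 in the control. These 3 levels lie within 0.29 of each other. Its log2 ratios were 0.05 under pressure and 0.29 in the cold, but -0.41 and -0.11 with perfect-match intensities. SCJ1, a soluble J-domain protein, had levels of 7.12 under pressure and 6.76 in the cold, against 7.23 in the control. Both treated arrays were below the control, with log2 ratios of -0.12 and -0.47, inside 1.5-fold. JEM1, a J-domain protein of the ER membrane, was above mismatch on none of the arrays, at 6.17 under pressure, 6.32 in the cold and 6.20 in the control, and is given no fold. With the deposited RMA levels neither LHS1 nor SCJ1 had a ratio past 1.5-fold in any of the comparisons, but the cold ratio of SCJ1 was -1.02 with the arrays centred.

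**Figure D1:**
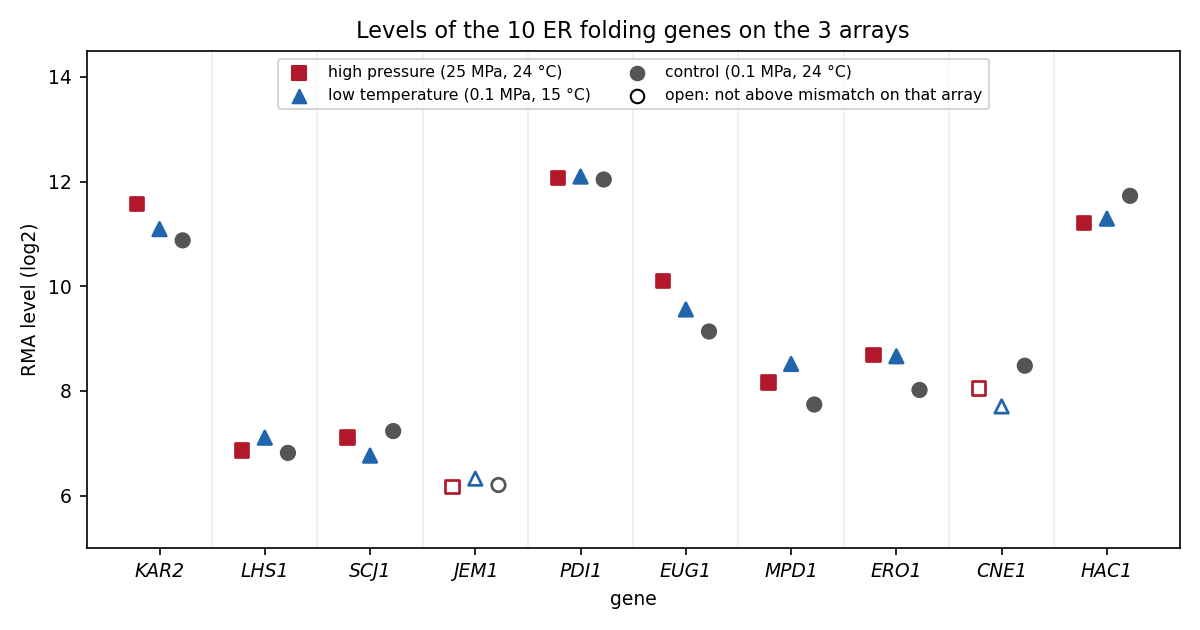
Log2 RMA level (vertical axis) of each of the 10 genes (horizontal axis) on the high-pressure array (squares), the low-temperature array (triangles) and the control array (circles), 1 array per condition and so no error bars. KAR2 and EUG1 step down across the 3 arrays in that order, PDI1 is level at 12.04 to 12.10, and HAC1 is highest in the control at 11.73. Open symbols mark levels not above mismatch, which are JEM1 on all 3 arrays and CNE1 on both treated arrays.

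Among the oxidoreductases, PDI1, the protein disulfide isomerase, had levels of 12.07 under high pressure and 12.10 at low temperature, against 12.04 in the control. The RMA levels of PDI1 were thus within 0.06 of each other, although its perfect-match intensity was 6574 under pressure and 8446 in the cold, against 5245 in the control. EUG1, a relative of PDI1 on chromosome IV, had levels of 10.11 under pressure and 9.55 in the cold, against 9.13 in the control. The pressure ratio of EUG1, 0.97 on the log2 scale (1.97-fold higher), was the largest of the 10 genes, and its cold ratio was 0.42 (1.34-fold), inside 1.5-fold. Its perfect-match intensity was 1504 under pressure and 1321 in the cold, against 749 in the control. MPD1, another member of the disulfide isomerase family, was higher in the cold than under pressure, with levels of 8.17 under pressure and 8.51 in the cold, against 7.74 in the control. Its log2 ratio was 0.43 under pressure (1.35-fold) and 0.78 in the cold (1.71-fold higher), the largest cold ratio of the 10.

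ERO1, the oxidase that recharges the disulfide isomerase, had levels of 8.70 under high pressure and 8.66 at low temperature, against 8.02 in the control. Both treated arrays lay above the control by nearly the same amount, 0.68 (1.60-fold) and 0.64 (1.56-fold) on the log2 scale. It was the 1 gene of the 10 that was higher past 1.5-fold on both. The 2 ratios share the control array, so an error in its level would enter both.

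CNE1, the yeast relative of calnexin and the lectin chaperone of this set, had levels of 8.05 under high pressure and 7.70 at low temperature, against 8.48 in the control. CNE1 was above mismatch in the control but on neither treated array. The cold ratio was -0.78 on the log2 scale, 1.71-fold lower by RMA. The lower of both levels failed the mismatch criterion, so this fold is uncertain in size and bounds nothing. With perfect-match intensities the sign turned, at 593 in the cold against 482 in the control (0.30 on the log2 scale). The mismatch intensity of CNE1 was 465 in the cold, 272 under pressure and 189 in the control. These values enter the mismatch criterion, whereas RMA condenses the perfect-match probes. Why the 2 ratios differ in sign was not tested.

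HAC1, the transcription factor, had levels of 11.22 under high pressure and 11.29 at low temperature, against 11.73 in the control. Both treated arrays were below the control, by log2 ratios of -0.50 (1.42-fold lower) and -0.44 (1.35-fold lower), inside 1.5-fold. Perfect-match intensities of 3170 under pressure and 3922 in the cold, against 3216 in the control, gave ratios of -0.021 and 0.29. Other scalings put HAC1 past 1.5-fold lower under pressure. Its ratio was -0.85 with RMA levels centred, -0.59 with quantile normalization over rows and -0.59 without the length trend. In the cold HAC1 was past 1.5-fold lower with RMA levels centred (-0.99). The files give 1 level for the HAC1 row, so spliced and unspliced HAC1 mRNA cannot be told apart.

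Under high pressure, KAR2, EUG1 and ERO1 were higher than the control past 1.5-fold, the size named in the series' design text, and none of the 10 was lower. That is 3 of 10 higher against 28.1% of the 4912 genes counted in this comparison, and 0 of 10 lower against 12.3%. The share higher is close to that of all genes. A gene was counted unless its brighter level fell in the lowest 25% of that array, a condition that all 10 met in every comparison. The median log2 ratio of the 10 was 0.044, beside 0.13 for all genes. Relative to the median gene, the ratios were 0.85 for EUG1, 0.58 for KAR2 and 0.55 for ERO1. EUG1 had a higher ratio than 87.4% of genes, KAR2 than 80.1% and ERO1 than 79.3%, whereas HAC1 exceeded 12.1%. The call of KAR2 was lost with the RMA levels centred on each array's median (0.36). That of ERO1 was lost under this centring (0.34), with quantile normalization over rows (0.47) and with centred perfect-match intensities (0.48). EUG1 stayed past 1.5-fold under all 5 other scalings, from 0.63 to 1.04. Lower calls were gained by HAC1 and CNE1 with RMA levels centred (-0.85 and -0.77) and with quantile normalization over rows (-0.59 and -0.60). HAC1 was also lower without the length trend (-0.59), and LHS1 with centred perfect-match intensities (-0.64).

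At low temperature, MPD1 and ERO1 were higher past 1.5-fold and CNE1 lower. These 2 of 10 higher stand against 34.7% of the 4887 genes counted, and the 1 of 10 lower against 9.64%. The median of the 10 was 0.17, beside 0.26 for all genes. Relative to the median gene, MPD1 had a ratio of 0.51 and ERO1 of 0.38, and MPD1 exceeded 77.7% of genes. With the RMA levels centred none of the 10 was higher, and MPD1 had 0.22 and ERO1 0.090. With perfect-match intensities 5 of the 10 were higher. Over all genes the count rose too, from 1698 of 4887 with the deposited levels to 2264. The 2264 are among genes that met the level minimum on that scale. The number of those genes is not given here, so the 5 of 10 has no share beside it.

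**Figure D2:**
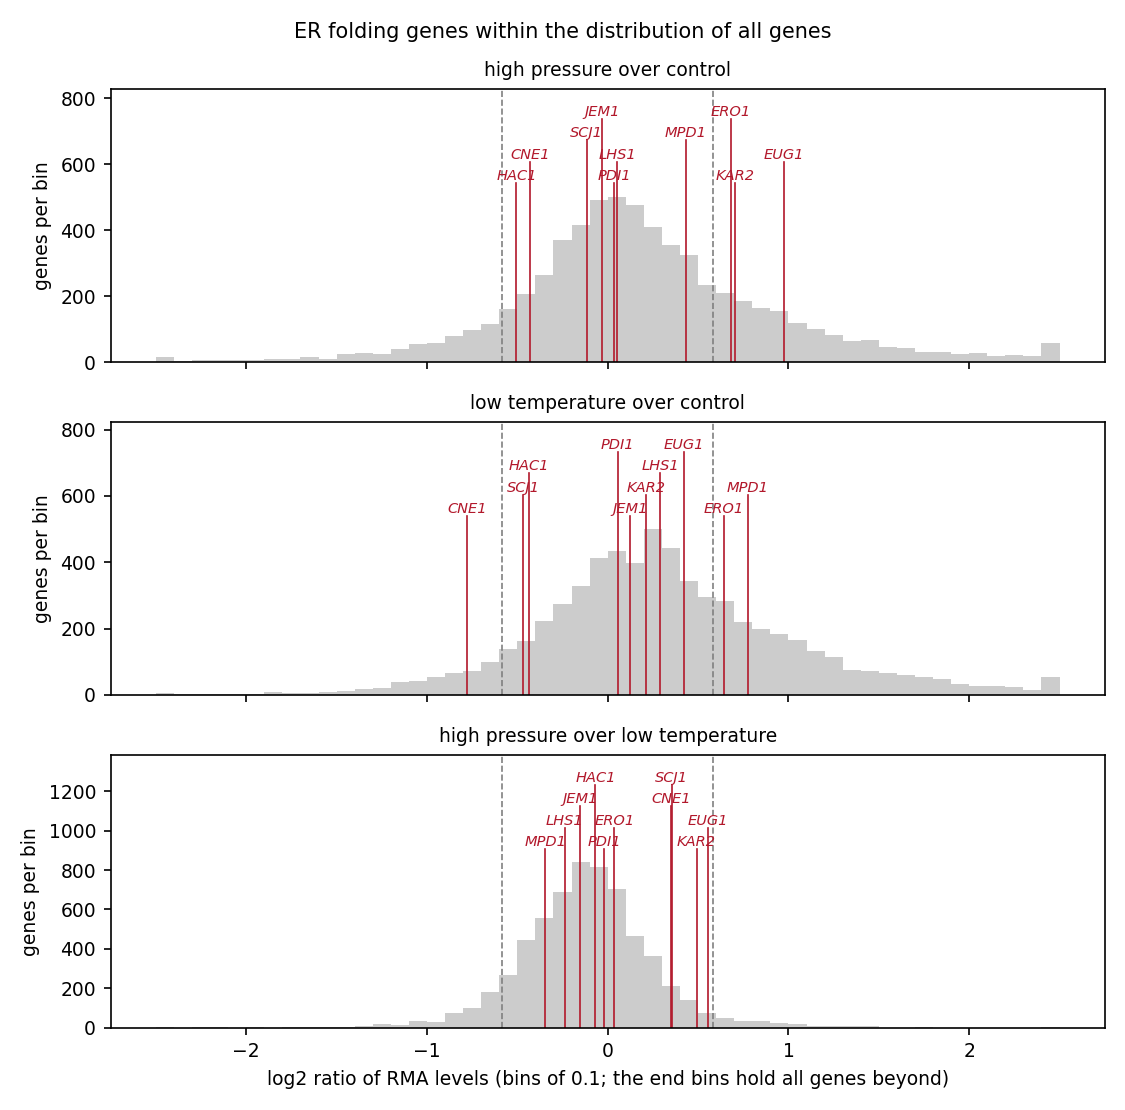
Number of genes (vertical axis) in bins of the log2 ratio of RMA levels (horizontal axis), in grey, for the 3 comparisons from top to bottom, with a red line at the ratio of each of the 10 ER genes and dashed lines at 1.5-fold. All 10 genes lie inside the range of the 6282 genes, with CNE1 in the cold near the lower end (a higher ratio than 5.05% of genes). EUG1 stands at the upper end of the set under pressure (0.97), MPD1 in the cold (0.78) and EUG1 and KAR2 in the direct comparison (0.55 and 0.49).

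The treated arrays were also set against each other directly, which leaves the control out. No gene of the 10 differed past 1.5-fold between high pressure and low temperature, 0 of 10 higher against 4.26% of 4807 genes counted and 0 of 10 lower against 10.1%. EUG1 and KAR2 were nearest to the threshold, with log2 ratios of pressure over cold of 0.55 and 0.49, higher than those of 96.3% and 95.4% of genes. MPD1 lay at the other end of the set with -0.34, lower than the gene at the median, -0.12. ERO1, PDI1 and HAC1 lay between 0.04 and -0.07. With perfect-match intensities EUG1 had 0.19 and KAR2 0.043, and with RMA levels centred 0.76 and 0.70, past 1.5-fold.

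**Figure D3:**
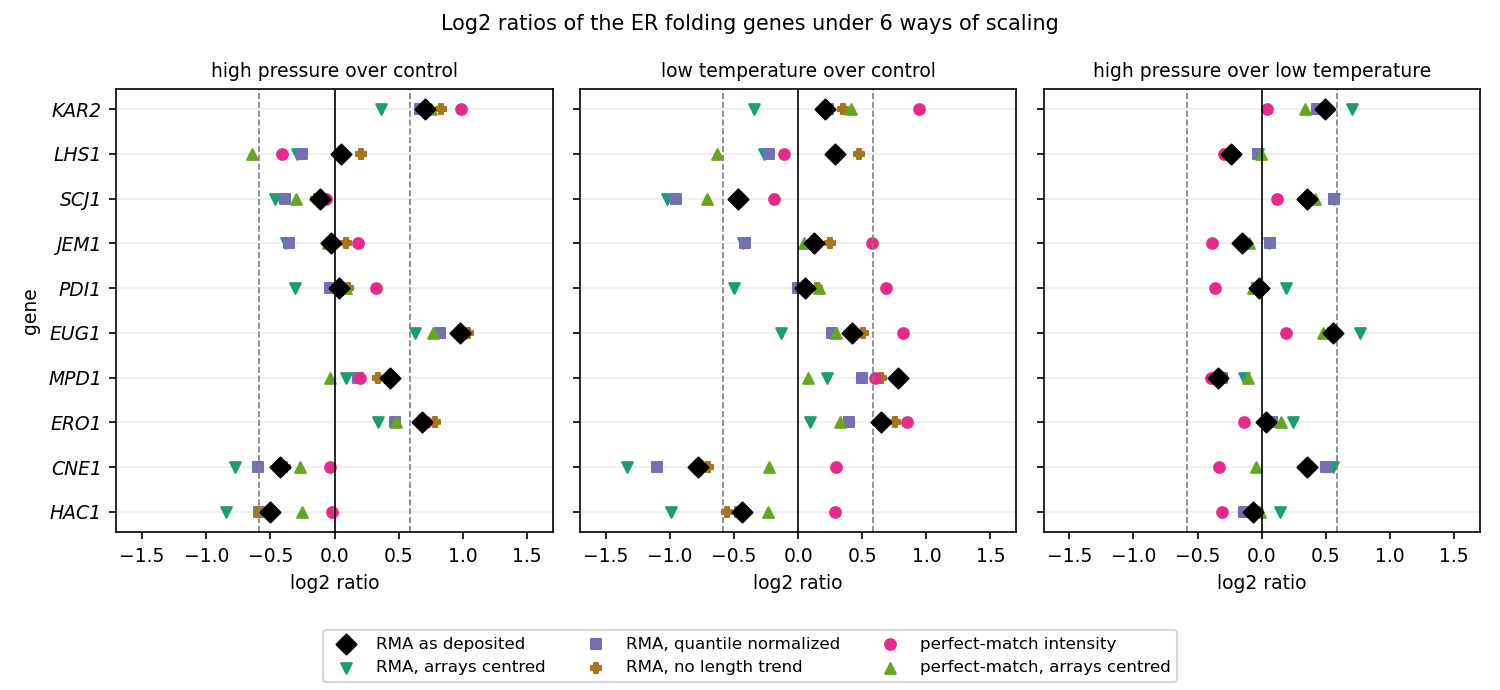
Log2 ratio (horizontal axis) of each of the 10 genes (rows) in the 3 comparisons (panels), with the deposited RMA levels as black diamonds and 5 other scalings of the same arrays as coloured symbols; dashed lines mark 1.5-fold. EUG1 is past 1.5-fold under pressure with every symbol (0.63 to 1.04). HAC1 is at or below 0 there with every symbol (-0.85 to -0.021), and in the cold the symbols of one gene spread widely, from -0.34 to 0.94 for KAR2.

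A shift of a whole array cannot change the difference between the ratios of 2 genes on it, so such differences were read as well, for pairs chosen after their values were seen. Centring leaves them as they are, so the 6 scalings give 4 distinct values of each difference. Under high pressure the ratio of KAR2 exceeded that of HAC1 by 1.21 on the log2 scale (1.00 to 1.42 over these 4). EUG1 exceeded HAC1 by 1.48 (1.03 to 1.62) and ERO1 exceeded it by 1.19 (0.73 to 1.37). Against PDI1, KAR2 was higher by 0.67 (0.66 to 0.72) and EUG1 by 0.94 (0.68 to 0.94), whereas ERO1 was higher by 0.65 with a span of 0.39 to 0.68 that reaches inside 1.5-fold. In the cold KAR2 exceeded HAC1 by 0.65 (0.65 to 0.90) but PDI1 by 0.16 (0.16 to 0.25). These pairs join the high and low ends of the set, and differences of this size were common on the arrays. Of all 45 pairs of the 10 genes, 15 (33.3%) differed past 1.5-fold in the same direction under every scaling under pressure, against 35.5% of all pairs of the 4566 counted genes whose length is known. In the cold 6 (13.3%) did, against 31.2% for 4545 genes, and between pressure and cold 0, against 13.8% for 4491 genes. In none of the comparisons was the share among the 10 genes above that of all pairs. Some of the pairs past 1.5-fold hold JEM1 or CNE1, which were not above mismatch on the treated arrays. Under pressure these were KAR2 and EUG1 each with JEM1, and KAR2, EUG1 and ERO1 each with CNE1. In the cold it was KAR2 with CNE1.

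Other genes that serve the same compartment were read in 5 lists of 53 genes, all measured. Their counts are to be read against all genes, of which 28.1% were higher and 12.3% lower under pressure, and 34.7% higher and 9.64% lower in the cold. Of 10 further folding enzymes, 4 were higher than the control past 1.5-fold under high pressure and 0 lower. The median log2 ratio of the list was 0.52. These were ERJ5, a J-domain protein of the ER, MPD2, a relative of MPD1, and the cyclophilins CPR5 and CPR2. ERJ5, the highest, had a level of 6.98 under pressure, against 5.54 in the control where it was not above mismatch (2.73-fold higher by RMA). Its pressure ratio was 1.45 on the log2 scale by RMA and 0.87 with perfect-match intensities. MPD2 had 6.83 under pressure and 7.00 in the cold, against 5.77 in the control, ratios of 1.06 and 1.23. With perfect-match intensities the ratios of MPD2 were 0.58 and 0.57, just inside 1.5-fold. In the cold 4 of the 10 were again higher and 0 lower, with a median of 0.34. They were ERJ5 (1.36), MPD2, CPR2 (0.66) and SIL1, another nucleotide exchange factor of Kar2. SIL1 had levels of 7.34 under pressure and 8.03 in the cold, against 6.81 in the control, so its cold ratio was 1.21 (2.32-fold) and its pressure ratio 0.52. The lowest of the list was SHR3, which packages amino acid permeases for export, at -0.27 under pressure and -0.24 in the cold. These shares of 10 genes are near those of all genes. Genes of the lists other than the highest and lowest of each (MPD2, CPR5, CPR2, SIL1, SEC72, YOS9, UBC6, UFD1, HRD1 and TRL1) were named after their values were seen.

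Of 14 N-glycan transfer and trimming genes, 1 was higher and 0 lower under pressure (median -0.070), and 1 was higher and 1 lower in the cold (median -0.23), so the shares higher were below the 28.1% and 34.7% of all genes. No test of this difference was made. OST4, a small subunit of the oligosaccharyltransferase, was the highest at 0.81 under pressure and 0.61 in the cold. STT3, its catalytic subunit, lay at 10.17 in the cold, against 10.85 in the control (1.60-fold lower), but its ratio of -0.68 was 0.15 with perfect-match intensities and -0.54 without the trend on gene length. HTM1, a mannosidase that marks glycoproteins for degradation, was the lowest under pressure at -0.47.

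Of 11 translocation genes, 4 were higher and 1 lower under pressure (median 0.41), and 3 higher and 1 lower in the cold (median 0.23), shares near those of all genes. SSS1, a small subunit of the Sec61 channel, had levels of 9.65 under pressure and 9.66 in the cold, against 7.24 in the control, 5.33-fold and 5.38-fold higher. SEC61, the channel itself, had levels of 11.19 on both treated arrays, against 11.95 in the control, ratios of -0.76 in each comparison that were -0.26 and -0.013 with perfect-match intensities. These 2 subunits of the same channel thus lay at opposite ends of the list.

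Of 14 genes of ER-associated degradation 13 were counted, and 6 of these were higher and 1 lower, both under pressure (median 0.52, against 28.1% and 12.3% of all genes) and in the cold (median 0.51, against 34.7% and 9.64%). YOS9, a lectin of this pathway and 1 of the 6 in the cold, was above mismatch on no array, and no test of these shares was made. UBC6 and UFD1, among the 6 in both comparisons, were not above mismatch in the control, at levels of 6.15 and 5.60. HRD1 was barely past 1.5-fold under pressure, with a log2 ratio of 0.588. The counts higher depended on scaling. With RMA levels centred, and also with centred perfect-match intensities, 2 were higher in each comparison. Quantile normalization over rows gave 3 under pressure and 2 in the cold, and uncentred perfect-match intensities gave 5 and 9. Without the length trend 6 stayed higher in each. DER1, a membrane protein of this pathway, had levels of 7.80 under pressure and 7.85 in the cold, 6.03-fold and 6.22-fold higher by RMA than the control. Its control level was 5.21 and not above mismatch, so these folds are uncertain in size. With perfect-match intensities these ratios were 1.67 and 1.77 on the log2 scale. DOA10, a ubiquitin ligase of the ER membrane, was the lowest at -0.85 and -0.92, but had -0.45 and -0.29 with perfect-match intensities, inside 1.5-fold. Of the 4 signalling genes 3 were counted, and of these 0 were higher and 1 lower under pressure and 0 passed in the cold. PTC2, a phosphatase that acts on Ire1, lay at 8.42 under pressure and 9.16 in the cold, against 9.36 in the control, 1.92-fold lower under pressure. IRE1 lay at 6.25, 6.27 and 6.20 on the pressure, cold and control arrays, above mismatch in the cold only. TRL1, the ligase of HAC1 splicing, was above mismatch on none. GCN4, an activator that can act with Hac1, had ratios of 0.39 and -0.24 by RMA, but 0.74 and 0.63 with perfect-match intensities, so that its direction in the cold turned.

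Over all 53 genes of the 5 lists, 15 were higher and 3 lower under pressure (median 0.21), and 14 and 3 in the cold (median 0.073), among 51 counted. Those shares of genes higher are close to the 28.1% of all genes under pressure and below the 34.7% in the cold. With the arrays centred the counts became 7 and 12 under pressure and 7 and 19 in the cold. Those of all genes likewise turned to lower, with 824 higher and 1251 lower under pressure and 718 and 1521 in the cold. These are counts among genes that met the level minimum on the centred scale, and no share is given for them. The ratios of these arrays also have a trend with gene length. Without it SSS1, of 243 bases, was at 2.23 under pressure and 2.14 in the cold and DER1, of 636 bases, at 2.27 in both, so these ratios stayed past 1.5-fold. OST4, of 111 bases, came inside it in the cold (0.39), CPR5 under pressure (0.47), and CPR2 in both (0.43 under pressure and 0.29 in the cold). STT3 also came inside 1.5-fold in the cold, and SHR3 moved past it, at -0.59 under pressure and -0.61 in the cold.

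**Figure D4:**
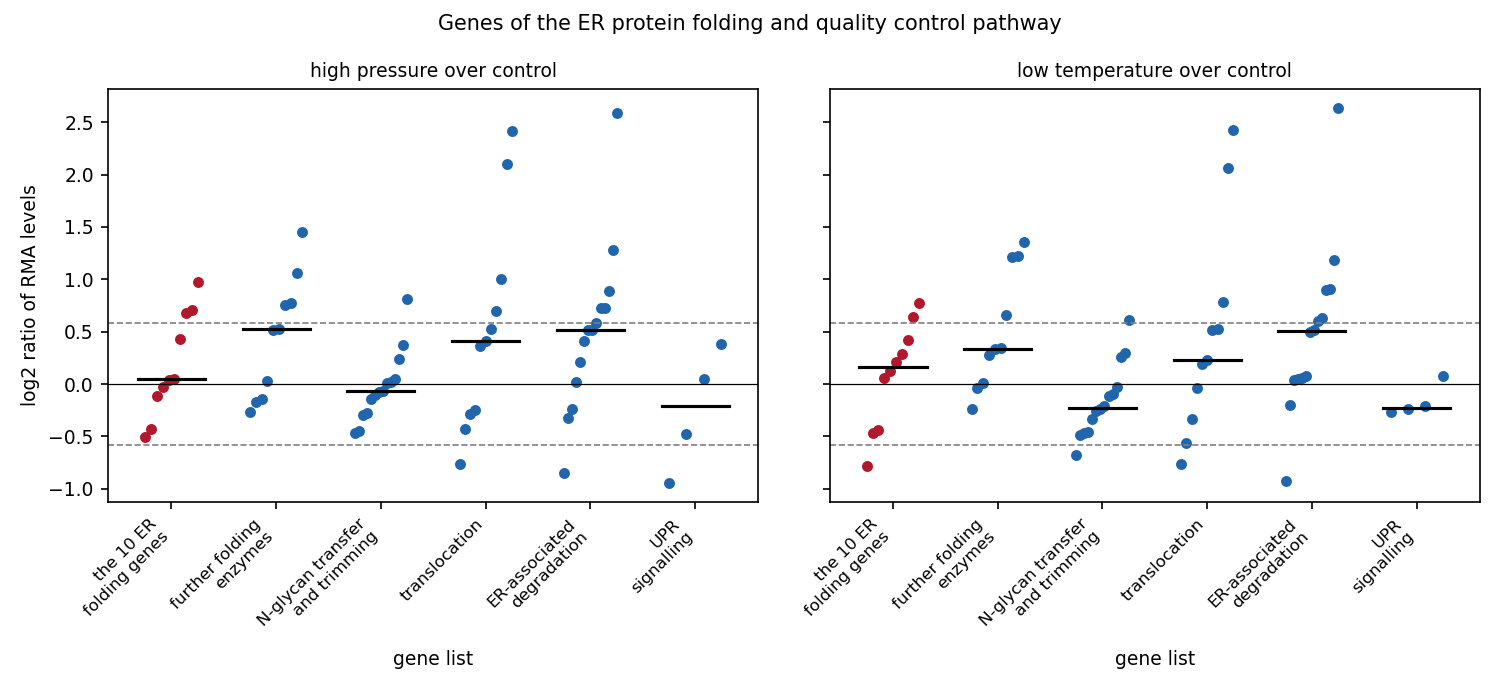
Log2 ratio of RMA levels (vertical axis) of single genes (points) in the 10 ER folding genes (red) and 5 further lists of the pathway (blue), for high pressure over control (left) and low temperature over control (right); black bars are list medians and dashed lines 1.5-fold. Points of the 10 genes lie between -0.78 and 0.97. The translocation and degradation lists hold the points above 2, which are SSS1, SEC72 and DER1 in both panels.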

How the data were processed

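The authors' deposited log2 levels come, per the labels and the submitters' processing notes, from RMA with quantile normalization. Its version, the background step and the joint handling of the arrays are not given in the sources used here. The deposited levels do not share 1 median, with 6.77 under pressure, 6.98 in the cold and 6.43 in the control. Ratios and counts from the deposited levels therefore include these shifts between arrays. The deposited per-array tables hold mean perfect-match, mismatch and difference intensity over 15 probe pairs, with their coefficients of variation, per the file headers. A row was above mismatch where the t from the mean difference exceeded 1.76 (14 degrees of freedom), which measures probes, not cultures. Rows were matched to RefSeq R64 by locus tag (1723), symbol (3953) or synonym (152), for names and gene lengths alone, and 509 kept their file name. Rows of 53 genes with several rows were averaged, giving 6282 genes. Ratios are differences of log2 levels, computed with pandas 2.3.3 and numpy 2.4.6. Alternatives were log2 perfect-match intensities with and without centring, RMA levels centred or quantile normalized over rows, and a lowess trend on gene length removed (fraction 0.3, statsmodels 0.14.6). The counting code was run on simulated arrays with changes larger than any ratio of the 10 genes. That run checks the code and does not measure how reliable calls near 1.5-fold are. Named are all 10 genes and the highest and lowest gene of each list against the control among those above mismatch on either array; a few others were named after their values were seen. The members and lists were chosen with earlier results of these data known. The number of arrays limits the precision. Sequences and genome coordinates were not used here.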

Additional observations from a re-analysis of the deposited data

How the results depend on the processing

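The deposited levels gave 3 of the 10 genes higher and 0 lower under pressure, 2 and 1 in the cold, and 0 and 0 between pressure and cold. With RMA levels centred these became 1 and 2, 0 and 3, and 2 and 0, with medians of -0.30, -0.39 and 0.22; all genes moved the same way, to 824 and 1251, 718 and 1521, and 424 and 211. With quantile normalization over rows they became 2 and 2 and then 0 and 2, with medians of -0.14 and -0.11. Over all genes these counts were 1000 and 926 under pressure and 1001 and 969 in the cold. Perfect-match intensities gave 5 and 0 in the cold (2264 and 114 of all genes), and medians of 0.19, 0.59 and -0.30. Centred, they gave 2 higher and 1 lower under pressure (768 and 519 of all genes). In the cold they gave 0 higher and 2 lower (756 and 639 of all genes). The medians were then -0.042, 0.061 and -0.012. Without the length trend 3 of the 10 genes were higher and 1 lower under pressure (1250 and 611 of all genes), and the medians were 0.16 and 0.30. The counts of all genes given here hold only genes that met the level minimum under the scaling named, so they are not shares of 6282. At a threshold of 2-fold, 0 of the 10 genes were higher or lower in any comparison. The share of all genes past 2-fold is not given here. Many genes were past it. The bin from 1.0 to 1.1 on the log2 scale alone held 119 under pressure and 166 in the cold. The next bin up held 100 and 133, and the bin from -1.1 to -1.0 held 54 and 43. More genes lay beyond these bins in both directions, so they are a part of the genes past 2-fold. Among the 8 genes of the 10 above mismatch on both arrays, 0 were lower in the cold. Of 150 single ratios under the 5 scalings, 122 kept their side of 1.5-fold, 11 fell inside it, 14 moved past it in the same direction and 3 changed sign past it on either scale: LHS1 with centred perfect-match intensities (-0.64 under pressure and -0.63 in the cold) and CNE1 in the cold with perfect-match intensities (0.30). The cause of these shifts was not tested. Differences between pairs of genes were added after seeing the data. No paired analysis was possible because each condition has 1 array of pooled RNA. Signal over mismatch limits JEM1 on all 3 arrays and CNE1 on both treated arrays.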
